A study of Mus musculus with 6 samples.

Results

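The genes described here are 10 components of the Notch pathway: the receptors Notch1, Notch2 and Notch3, the ligands Dll1, Jag1 and Jag2, the nuclear factors Hes1, Hes6 and Heyl, and the glycosyltransferase Lfng. They were chosen by symbol, and all 10 were among the 15648 genes measured. The RNA came from the intermolar eminence, the raised back part of the mouse tongue, of C57BL/6 embryos at E17.5. The 3 WT libraries carry the wild-type genotype, and the 3 libraries labelled Fst-KO come from mutants of Fst, which encodes the secreted activin and BMP antagonist follistatin. No treatment is recorded for either group, and the labels do not say which part of Fst the allele removes or whether each library is 1 embryo. The values are group means, ratios (labelled Fst-KO over WT), p-values and false discovery rates (FDR) of the authors' deposited table. That table holds no value per library, so no spread between replicates stands beside any mean and the p-values are the only measure of replicate error.

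Notch receptors are single-pass membrane proteins that are activated by Delta-like and Jagged ligands on a neighbouring cell. Ligand pulling exposes the receptor to an ADAM protease and then to gamma-secretase, and the released intracellular domain enters the nucleus, where it joins the DNA-binding protein RBPJ and switches on repressor genes of the Hes and Hey families. Fringe enzymes such as Lfng add sugars to the receptor and so change which ligands it answers to. In stratified epithelia the pathway is known for its part in the step from basal to suprabasal cells, and in vessels for arterial and mural cell fates.

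RBPJ binds sites with the letters GTGGGAA, and Hes repressors are known to bind N-boxes, CACNAG. The stretches upstream of RefSeq transcription starts (build GRCm38.p6) are shown for 3 of the genes: Lfng, because it held the only GTGGGAA match among them, and Jag1 and Hes6, because they had an unadjusted p-value under 0.05 (below). Bases of the gene's own GENCODE exons were left out, each line reads 5′ to 3′ on the gene's strand, and capitals mark every match to GTGGGAA, to its core TGGGAA or to CACNAG on either strand. The Lfng stretch is chr5:140607091-140607319 on the plus strand, the Jag1 stretch chr2:137116645-137116770 on the minus strand and the Hes6 stretch chr1:91413223-91413472 on the minus strand. Hes6 has a pair of RefSeq starts, and the stretch shown is that of the start inside the GENCODE gene, while the window of the outer start, chr1:91414039-91414288, held no match and is not shown.
Lfng: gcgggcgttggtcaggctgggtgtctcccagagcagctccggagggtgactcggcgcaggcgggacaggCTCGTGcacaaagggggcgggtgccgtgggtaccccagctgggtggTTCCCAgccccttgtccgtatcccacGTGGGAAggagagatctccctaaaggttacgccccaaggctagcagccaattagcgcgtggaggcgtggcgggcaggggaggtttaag
Jag1: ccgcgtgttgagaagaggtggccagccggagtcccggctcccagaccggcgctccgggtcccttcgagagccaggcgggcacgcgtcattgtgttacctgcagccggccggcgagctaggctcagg
Hes6: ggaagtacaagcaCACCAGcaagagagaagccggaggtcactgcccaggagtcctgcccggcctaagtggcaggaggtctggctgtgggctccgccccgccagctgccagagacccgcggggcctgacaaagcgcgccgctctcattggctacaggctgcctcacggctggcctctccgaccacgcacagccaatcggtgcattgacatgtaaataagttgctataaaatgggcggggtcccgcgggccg

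Upstream windows of 250 bases were searched for 8 of the 10 genes (all but Hes1 and Heyl), in 10 windows, since Dll1 and Hes6 each had a pair of starts. Unlike the stretches printed above, the searched windows include bases of the gene's own GENCODE exons. These were all 250 bases for Jag2, 153 for the inner start of Dll1 and 124 for Jag1. They were 21 for Lfng, 11 for Notch2 and 2 for Notch1. For Jag2 the search thus covered no base outside its exons. Distances are counted from the RefSeq start, not from the end of a printed line. The full site GTGGGAA was found in 1 window, that of Lfng, where it lay from 109 to 103 bases upstream of the start, and a separate match to the core, TGGGAA, lay in the opposite orientation from 135 to 130 bases upstream. Over all 32851 windows of the same length, 5.42% held the full site, 21.6% the core and 36.7% an N-box. N-boxes were found in 5 of the 10 windows, those of Notch1, Notch2, Notch3, Lfng and the inner start of Hes6. The core lies within the full site, so these matches are not independent, and a match is a run of letters and no measured binding. Among the other Notch pathway genes, 5 of 51 with a window held the full site: Psen2, Spen, Hey2, Hes5 and Hes7. Counted by window, as the share of 5.42% is, these were 5 of 66. The authors' deposited table gave Psen2 a ratio of 1.34, Spen 1.06 and Hey2 1.12, and Lfng itself 1.08. Hes5 and Hes7 were not analysed here.

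The targeted gene was not lower in the libraries labelled Fst-KO: Fst had a mean of 69.7 there and 33.2 in WT, in the authors' deposited table (FDR 0.0158). The groups are therefore named by their labels, and each direction below is that of the labels. Most genes stood slightly higher in the libraries labelled Fst-KO, with a median ratio of 1.14 and quartiles of 1.04 and 1.24 over the 15648 genes, so the ratios of the 10 Notch genes and the medians of the other lists are also read against that all-gene median. The Y-linked genes Ddx3y, Eif2s3y, Uty and Kdm5d had ratios of 0.548 to 0.642 and Xist, the X-inactivation RNA, had 5.19 in the authors' deposited table, none with an FDR under 0.05. A different balance of the sexes between the groups, and its part in the Notch values, was not tested. No Notch gene described here is on X or Y. The tissue is labelled as epithelium, and the skeletal actin Acta1 (mean of 4921 in WT) and the collagen Col1a1 (1182 in WT) in the authors' deposited table show that the RNA also came from muscle and mesenchyme. In such bulk samples fewer cells of a type and less RNA per cell cannot be told apart.

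All 10 Notch genes had a ratio above 1, between 1.02 for Dll1 and 1.30 for Jag1, but against the median ratio of all genes 5 were above and 5 below. A ratio above 1 was found for 81% of all genes. At an FDR under 0.05 (Partek's gene-specific analysis), 0 of the 10 passed, where 0.0959% of all genes did, and the lowest FDR among them was 0.291. At an unadjusted p-value under 0.05, 3 were higher (Hes1, Jag1 and Hes6), 0 were lower and 7 were neither, where 13.4% of all genes were higher and 2.17% lower. Looser and stricter thresholds gave 0 of the 10 at an FDR under 0.10, which 0.179% of all genes passed, and 0 at an unadjusted p-value under 0.01, which 2.7% of all genes passed in the higher direction. The median ratio of the 10 was 1.12, next to 1.14 for all genes. The ratios of 6 of the 10 lay between the quartiles of all genes. The median log2 ratio of the 10, 0.16, became -0.03 when taken relative to the all-gene median.

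**Figure D1:**
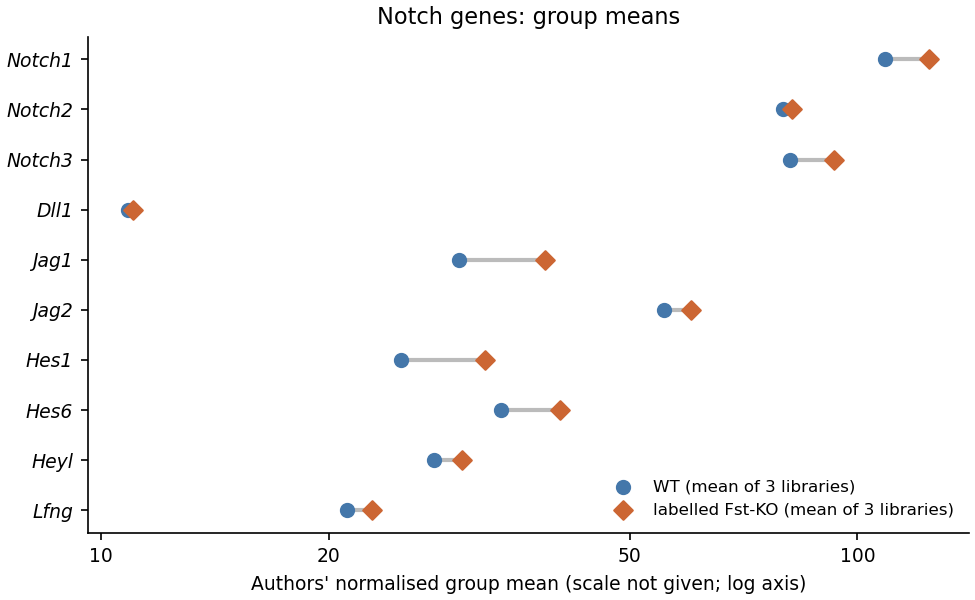
Authors' normalised group mean (log axis, scale not given) of each of the 10 Notch genes, with circles for WT and diamonds for the libraries labelled Fst-KO, each a mean of 3 libraries with no error bar since the table holds none. Every diamond lies to the right of its circle, with the widest gaps for Jag1 and Hes1 and almost none for Dll1 and Notch2; relative to the all-gene median, 5 of the 10 ratios fall below 1.

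Among the receptors, none differed beyond replicate error at an unadjusted p-value under 0.05. Notch1, the receptor of basal and suprabasal keratinocytes, had means of 124 in the libraries labelled Fst-KO and 109 in WT, a ratio of 1.14 (p = 0.0917, FDR 0.339), in the authors' deposited table. Notch3, known best from pericytes and vascular smooth muscle, had means of 93.2 and 81.4, a ratio of 1.15 (p = 0.120, FDR 0.357), in the authors' deposited table. Both lay almost exactly at the median of all genes, at 1.01 relative to it. Notch2, a widely expressed receptor, had means of 81.8 and 79.8, a ratio of 1.03 (p = 0.721, FDR 0.820), in the authors' deposited table, which is 0.902 relative to the all-gene median. The 3 receptors summed to 299 in the libraries labelled Fst-KO and 270 in WT, a ratio of 1.11 with no test.

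The ratios of the 3 ligands spanned 1.02 to 1.30, and those of the receptors 1.03 to 1.15. Jag1, a Jagged ligand of epithelium, mesenchyme and vessels, had means of 38.6 in the libraries labelled Fst-KO and 29.7 in WT, the highest ratio of the 10 genes at 1.30 (p = 0.0262, FDR 0.303), in the authors' deposited table. That ratio was higher than those of 83.4% of all genes, and 1.14 relative to their median. Jag2, a Jagged ligand that oral epithelium needs for normal palate and tongue development, had means of 60.2 and 55.5, a ratio of 1.08 (p = 0.488, FDR 0.645), in the authors' deposited table. Dll1, a Delta-like ligand of many progenitor cells, was the least abundant of the 10, with means of 11.02 and 10.8, a ratio of 1.02 (p = 0.834, FDR 0.897), in the authors' deposited table. Jag2 and Dll1 stood below the median of all genes, at 0.954 and 0.895 relative to it. The quotient of Jag1 over Jag2, which any scaling of a whole group leaves as it is, was 0.535 in WT and 0.641 in the libraries labelled Fst-KO, and this difference was not tested, because the table holds no value per library.

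The nuclear factors held the other 2 genes with an unadjusted p-value under 0.05. Hes1, the repressor that is the classical direct target of Notch, had means of 32.2 in the libraries labelled Fst-KO and 24.9 in WT, a ratio of 1.29 (p = 0.0124, FDR 0.291), in the authors' deposited table. Its p-value was the lowest of the 10 and ranked 661st among all genes, and its ratio was 1.14 relative to their median. Hes6, a family member that counteracts Hes1 and favours neuronal and myogenic differentiation, had means of 40.4 and 33.7, a ratio of 1.197 (p = 0.0496, FDR 0.320), in the authors' deposited table. The p-value of Hes6 thus lay just inside the threshold, and its ratio was 1.05 relative to the all-gene median. Heyl, a Hey-family target of Notch that is known from vascular smooth muscle, had means of 29.97 and 27.6, a ratio of 1.09 (p = 0.411, FDR 0.584), in the authors' deposited table, or 0.957 relative to the median. The quotient of Hes1 over Heyl was 0.902 in WT and 1.07 in the libraries labelled Fst-KO, again with no test.

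Lfng, lunatic fringe, which lengthens the O-fucose sugars of Notch, had means of 22.8 in the libraries labelled Fst-KO and 21.2 in WT, a ratio of 1.08 (p = 0.304, FDR 0.497), in the authors' deposited table. Relative to the all-gene median it stood at 0.949. Lfng thus stood among the 5 genes below that median, and any link of its ratio to the RBPJ letters shown above was not tested.

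**Figure D2:**
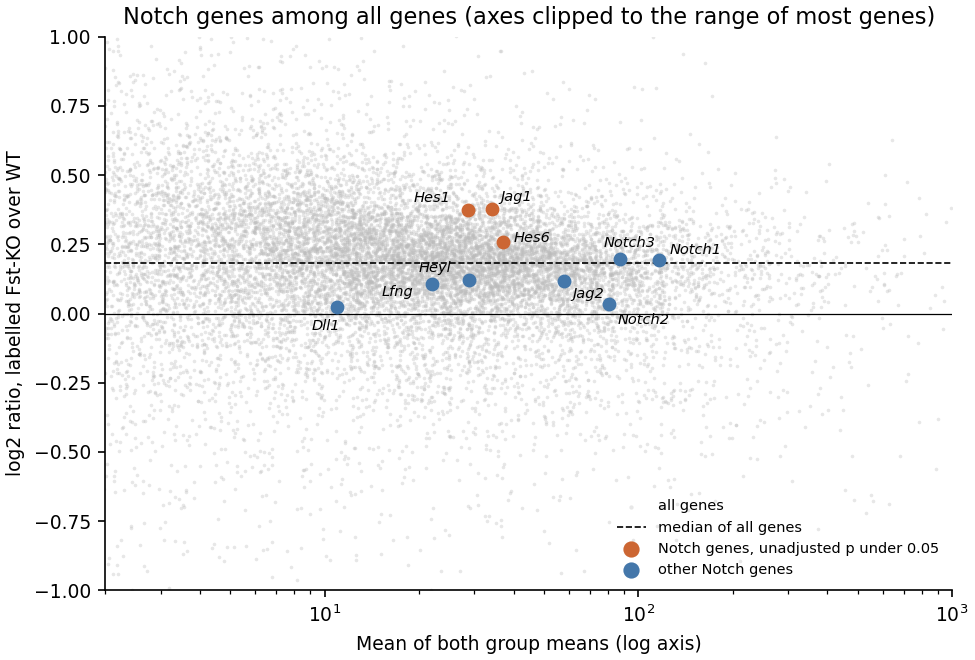
Log2 ratio of labelled Fst-KO over WT against the mean of both group means (log axis) for all genes (grey) and the 10 Notch genes (orange with an unadjusted p-value under 0.05, blue otherwise); the dashed line is the median of all genes at 0.18, and 1487 genes lie outside the axes. Hes1, Jag1 and Hes6 lie above the dashed line but inside the cloud of all genes, Notch1 and Notch3 lie on it, and the other 5 lie between it and 0.

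Levels can be set side by side across genes only per length, and the scale of the means is not given. If the means are not already divided by length, the WT means per kilobase of merged GENCODE exons ran from 2.57 for Dll1 to 18.7 for Hes6. In that order Hes6 was followed by Hes1 at 12.2, Notch3 at 10.07, Lfng at 8.45, Jag2 at 7.97, Notch1 at 7.63, Notch2 at 7.40, Heyl at 5.39 and Jag1 at 5.10 per kilobase. In the libraries labelled Fst-KO the order was the same apart from 2 changes of place between neighbours: Notch1 (8.73) stood above Jag2 (8.64), and Jag1 (6.62) above Heyl (5.86), per kilobase. Without a spread over libraries, neighbours in this order cannot be said to differ.

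The 10 genes lie on 8 chromosomes (mm10, GENCODE M21). Notch1 (chr2:26457903-26516663, minus strand) and Jag1 (chr2:137081456-137116644, minus strand) share chromosome 2, and Dll1 (chr17:15367354-15376872, minus strand) and Notch3 (chr17:32120820-32166852, minus strand) share chromosome 17. Notch2 lies at chr3:98013527-98150361 on the plus strand, Jag2 at chr12:112907819-112929776 on the minus strand and Hes1 at chr16:30064384-30067796 on the plus strand. Hes6 lies at chr1:91411483-91414038 on the minus strand, Heyl at chr4:123233556-123249875 on the plus strand and Lfng at chr5:140607320-140615545 on the plus strand. Exons of noncoding transcripts on the opposite strand overlap exons of Notch1 (0610009E02Rik and Gm13568), Notch3 (Gm17276) and Dll1 (A930024N18Rik), and an unclassified transcript on the same strand, Gm42820, overlaps Notch2. The sources used here do not say whether reads were counted by strand, so these 4 values may hold reads of those transcripts.

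The rest of the pathway also had ratios near those of all genes. Of 66 further pathway gene symbols on 6 lists, 58 were measured. Tle5, among those without a value, is another symbol of Aes, which was measured. Their median ratio was 1.13. An unadjusted p-value under 0.05 was reached by 6 in the higher direction (10.3%, where 13.4% of all genes did) and by 0 in the lower direction. Against the median of all genes, 27 stood above and 31 below. At an FDR under 0.05, 1 of the 58 passed, Gxylt2, where 0.0959% of all genes did.

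Gxylt2 encodes a xylosyltransferase that extends O-glucose sugars on the EGF repeats of Notch, and it is the one pathway gene whose rise passed the test. Its means were 53.1 in the libraries labelled Fst-KO and 32.04 in WT, a ratio of 1.66 (p = 3.64e-05, FDR 0.0436), in the authors' deposited table. The other 6 glycosyltransferases on its list had no p-value under 0.05, and the median ratio of all 7 was 1.13, or 0.995 relative to the all-gene median. Gxylt1, which encodes an enzyme of the same activity and is named here after its values were seen, had a ratio of 1.17 (p = 0.0621, FDR 0.322) in the authors' deposited table.

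Among 10 proteases and gamma-secretase subunits, 2 had an unadjusted p-value under 0.05, both higher (20%, next to 13.4% of all genes), and the median ratio was 1.15, or 1.01 relative to the all-gene median. Psen2, for a catalytic subunit of gamma-secretase, had means of 8.65 in the libraries labelled Fst-KO and 6.45 in WT, a ratio of 1.34 (p = 0.0207, FDR 0.301), in the authors' deposited table. Ncstn, for the subunit nicastrin, had a ratio of 1.27 (p = 0.0317, FDR 0.311) in the authors' deposited table.

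Of 15 ubiquitin ligases and endocytic regulators, 3 had an unadjusted p-value under 0.05, all higher (20%, next to 13.4% of all genes), with a list median of 1.16, or 1.02 relative to the all-gene median. Numb and Numbl encode adaptors that hold Notch signalling back in the cells that inherit them. Numbl had means of 50.5 in the libraries labelled Fst-KO and 37.3 in WT, a ratio of 1.35 (p = 0.00179, FDR 0.210), in the authors' deposited table. Numb had means of 56.3 and 45.1, a ratio of 1.25 (p = 0.0245, FDR 0.302), in the authors' deposited table. The Deltex-family gene Dtx3 had a ratio of 1.22 (p = 0.0268, FDR 0.304) in the authors' deposited table.

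The lists of remaining receptors and ligands, of nuclear effectors, and of other Hes and Hey genes had no gene with an unadjusted p-value under 0.05. The 4 other receptors and ligands had a median ratio of 1.06, or 0.933 relative to the all-gene median. The most abundant of them was Dlk1, an imprinted non-canonical ligand, with means of 1100.1 in the libraries labelled Fst-KO and 1062 in WT, a ratio of 1.04 (p = 0.709, FDR 0.809), in the authors' deposited table. The 17 nuclear effectors and corepressors had a median of 1.12, or 0.985 relative to the all-gene median. Aes, a short Groucho-family corepressor and the most abundant of these, had a ratio of 0.922 (p = 0.274, FDR 0.471) in the authors' deposited table. Rbpj itself, named after its values were seen, had a ratio of 1.10 (p = 0.294, FDR 0.489) in the authors' deposited table.

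The measured genes on the list of other Hes and Hey genes had ratios below that of Hes1. That list also held Bhlhe40, Bhlhe41 and Nrarp, a feedback inhibitor and direct target of Notch. It had 5 measured members and a median of 1.07, or 0.939 relative to the all-gene median. Only Hey1 and Hey2 among its Hes and Hey genes had a value, and the other measured members were Bhlhe40, Bhlhe41 and Nrarp. Bhlhe40, named after its values were seen, had the highest ratio on the list, 1.199 (p = 0.0711), in the authors' deposited table. It was the only member above the all-gene median. Nrarp had means of 54.8 in the libraries labelled Fst-KO and 51.3 in WT, a ratio of 1.07 (p = 0.399, FDR 0.575), in the authors' deposited table. Hey1 (ratio 0.887, p = 0.569) and Hey2 (1.12, p = 0.402), read from the authors' deposited table, were picked for mention once their values were known. Both were low, with means of 6.07 and 6.84 for Hey1 and of 2.18 and 1.94 for Hey2 (labelled Fst-KO, then WT). The difference between Hes1 and the genes of this list was not tested. Of 12 proneural and Id genes on a further list, 4 were measured, all of them Id genes, which encode inhibitors of bHLH factors, with a median of 1.17, or 1.03 relative to the all-gene median. Id2 had means of 35.99 in the libraries labelled Fst-KO and 27.2 in WT, a ratio of 1.32 (p = 0.0459, FDR 0.317), in the authors' deposited table. The other 8 genes on that list were not analysed here, and the lowest geometric mean of both groups in the table was 1.01, so genes low in both groups have no value.

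**Figure D3:**
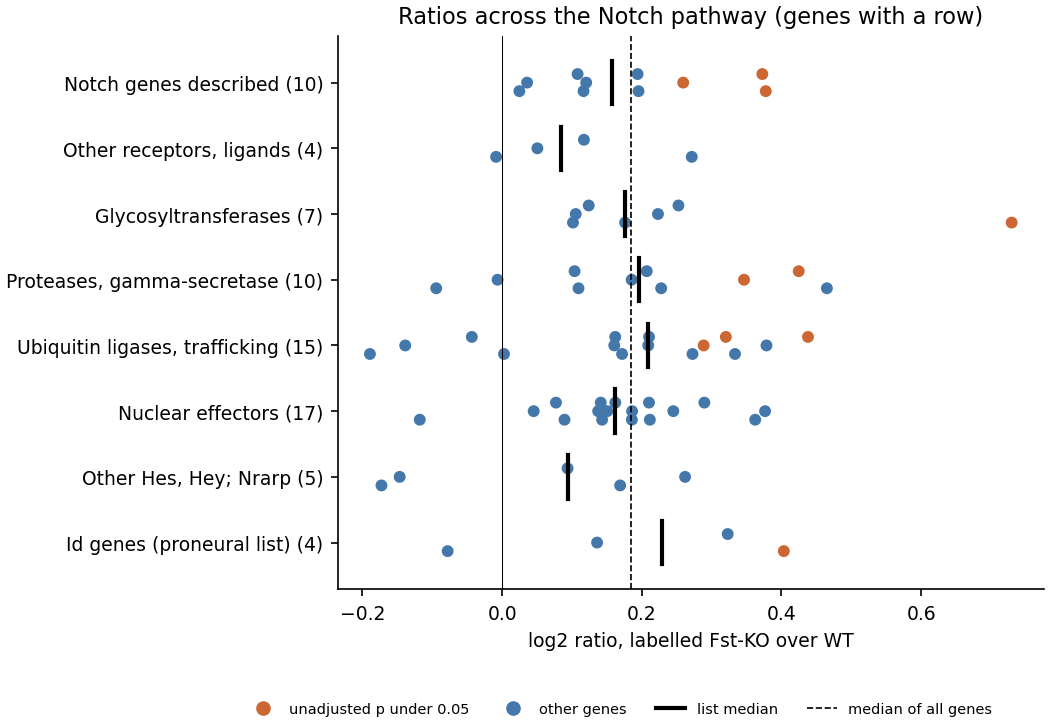
Log2 ratio of labelled Fst-KO over WT for each measured gene of the 10 Notch genes, the 6 other pathway lists and the proneural list, with the number of genes in brackets, orange points for an unadjusted p-value under 0.05, a black bar for each list's median and a dashed line for the median of all genes at 0.18. The bars lie near the dashed line, and the isolated point to the right is Gxylt2 at 0.73.

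Markers of the cell types that use these genes had ratios on both sides of 1, and no list was tested as a whole. Over all genes, 13.4% were higher and 2.17% lower at an unadjusted p-value under 0.05. The 9 basal epithelial markers summed to 5783 in the libraries labelled Fst-KO and 4084 in WT, with a median ratio of 1.28 (1.13 relative to the all-gene median) and 4 higher at that p-value. Krt5, the most abundant, had a ratio of 1.53 (p = 0.0235, FDR 0.302) in the authors' deposited table. The 16 markers of differentiating and keratinised epithelium had a median ratio of 0.634 (0.558 relative to the all-gene median). Of these, 5 were lower and 0 higher at that p-value, while their sum was 10887 in the libraries labelled Fst-KO against 9562 in WT. That sum came mostly from Krt6a, with a ratio of 1.14 (p = 0.425), and from Krt13 (1.32, p = 0.194) and Krt4 (1.80, p = 0.0562), in the authors' deposited table, and the last pair was chosen with its values known. Markers of the basal and the differentiating layers thus stand beside the values of Hes1 and Jag1. The part of these layers in the ratios of 1.29 and 1.30 was not tested.

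Endothelial and mural markers, of the cells known for Notch3, Heyl, Notch4 and Dll4, had medians near 1, below the all-gene median of 1.14. The 10 endothelial markers had a median ratio of 1.01 (0.885 relative to the all-gene median, with 9 of the 10 below it), a range of 0.895 to 1.19 and sums of 279 and 277, and 0 of them had an unadjusted p-value under 0.05. Their most abundant gene, Cdh5, had a ratio of 0.967 (p = 0.962) in the authors' deposited table. Of 10 markers of pericytes and vascular smooth muscle, 9 were measured, with a median ratio of 0.994 and a range of 0.751 to 1.26. Relative to the all-gene median the list median was 0.875, and 6 of the 9 genes lay below the all-gene median. At an unadjusted p-value under 0.05, 1 was lower, desmin (Des), at 0.769 (p = 0.0438, FDR 0.317) in the authors' deposited table. Skeletal muscle also makes desmin. The 9 markers summed to 1247 in the libraries labelled Fst-KO and 1448 in WT. Des made up most of both sums, with means of 781 and 1017, so their direction is that of Des. Notch3 at 1.15, and Notch4 at 1.21 (p = 0.191) and Dll4 at 1.08 (p = 0.504), named after their values were seen, stood above both marker medians in the authors' deposited table. Those medians are near 1, and 81% of all genes had a ratio above 1. Relative to the all-gene median, Notch3 was at 1.01, Notch4 at 1.06 and Dll4 at 0.955. The difference between these genes and the markers was not tested.

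Muscle, nerve and other markers stand beside the value of Hes6. The 13 skeletal muscle markers summed to 9875 in the libraries labelled Fst-KO and 13611 in WT, with a median ratio of 0.743 (0.654 relative to the all-gene median), 3 lower and 0 higher at an unadjusted p-value under 0.05, where 2.17% of all genes were lower and 13.4% higher. Acta1, the most abundant, had a ratio of 0.743 (p = 0.0990) in the authors' deposited table. The ratios on this list ran from 0.538 to 1.27, with 11 below 1 and 2 above. Those above 1, named after their values were seen, were Myod1 at 1.27 (p = 0.107) and Myh3 at 1.21 (p = 0.234), in the authors' deposited table. Of 10 nerve and Schwann cell markers, 9 were measured, with sums of 149 and 137 and a median of 1.42 (1.25 relative to the all-gene median) with 2 higher, and their most abundant gene, Erbb3, had 1.07 (p = 0.454) in the authors' deposited table. The part of either cell type in the ratio of Hes6 was not tested.

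The other marker lists had medians from 0.459 to 2.17, none of them tested as a list, and the same all-gene shares of 13.4% higher and 2.17% lower at an unadjusted p-value under 0.05 apply to their counts. The 11 fibroblast and mesenchyme markers had a median ratio of 1.23 (1.08 relative to the all-gene median) with 4 higher, and Col1a1 had 1.40 (p = 0.0191, FDR 0.301) in the authors' deposited table. The 6 taste and simple epithelial markers had a median of 2.17 (1.91 relative to it) with 5 higher, and Krt7 had 2.49 (p = 0.00429, FDR 0.261) in the authors' deposited table. Trpm5, the taste transduction gene of that list, named after its values were seen, had the lowest ratio. It was 1.03 (p = 0.834), or 0.904 relative to the all-gene median, in the authors' deposited table, so the list median does not describe taste cells. The 7 leukocyte markers had a median of 1.43 (1.26 relative to it) with 4 higher, and Csf1r had 1.42 (p = 0.0271, FDR 0.304) in the authors' deposited table. Of 8 salivary markers, 3 were measured and had a median of 0.459 (0.404 relative to it) with 1 lower, Muc19 at 0.379 (p = 0.000486, FDR 0.143) in the authors' deposited table. No marker on these 10 lists had an FDR under 0.05.

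**Figure D4:**
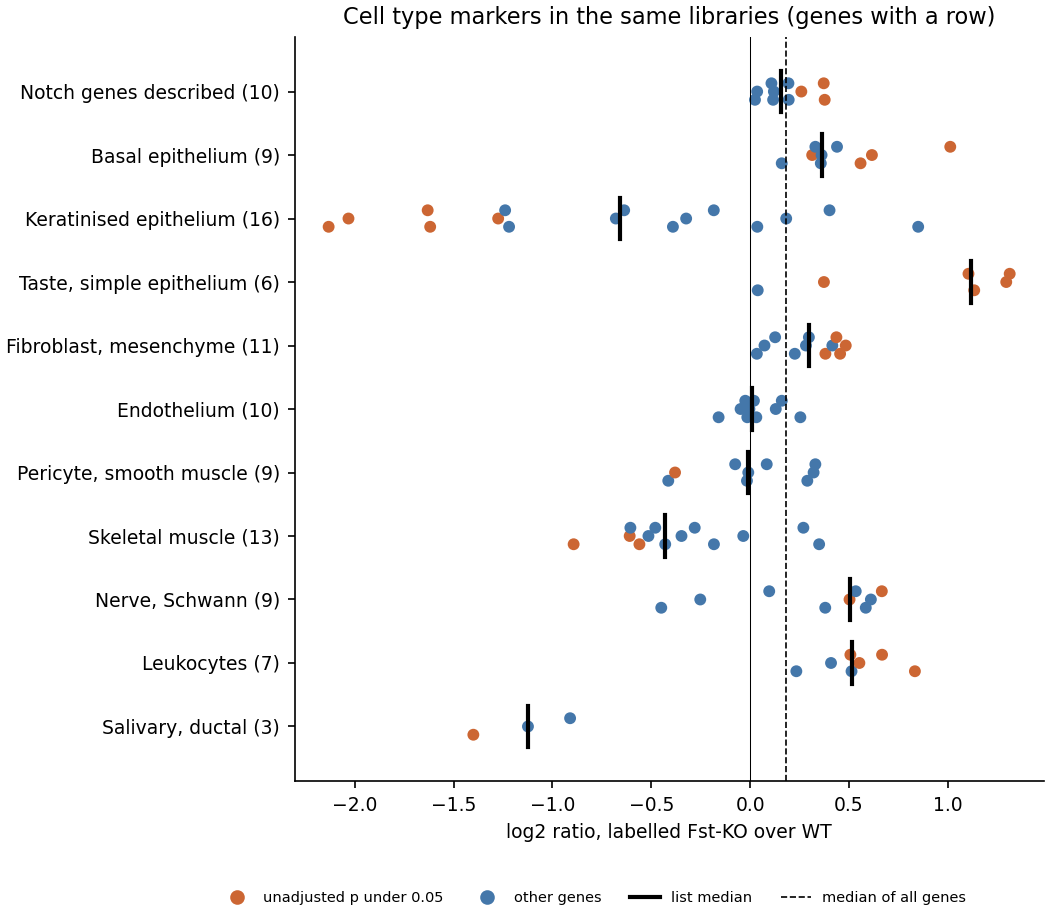
Log2 ratio of labelled Fst-KO over WT for the 10 Notch genes and for each measured marker of 10 cell type lists, with the number of genes in brackets, orange points for an unadjusted p-value under 0.05, a black bar for each list's median and a dashed line for the median of all genes at 0.18. The Notch genes span 0.02 to 0.38, while the marker medians run from -1.12 for salivary to 1.12 for taste and simple epithelium.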

How the data were processed

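Total RNA of 6 libraries was sequenced. BWA 0.7.12, Partek and mm10 are named in the submitters' processing notes. The sources used here give neither annotation, counting, strand nor normalisation, and depth per library is unknown. Per the file headers, the group means are least-squares means, a normalised signal. A deposited column of totals equalled 3 times the sum of both means for every gene, so it is the same signal. The ratio is the deposited quotient of mutant over WT, and the p-values and step-up FDR are those of the authors' test. The table's "mutant" was taken as Fst-KO, the series' only mutant group.

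With no value per library, the authors' FDR under 0.05 over all 15648 genes replaced the count test planned for such values. An exact permutation test of 3 against 3 libraries could not go below 0.1. Nothing in the labels says that the libraries are separate animals, so the p-values may measure technical spread. Python 3.11.15, pandas 2.3.3, NumPy 2.4.6 and Matplotlib 3.10.9 were used, and the adjustment was checked on simulated data. The Notch genes and all lists were chosen with earlier results of these data known. Each Notch gene is named, from each other pathway list every gene with an unadjusted p under 0.05 or else the most abundant, and from each marker list the most abundant. Alternatives were pseudocounts of 1 and 10, other scalings, thresholds and filters. Positions and upstream sequences are from GENCODE M21 and RefSeq on GRCm38, of which mm10 is another name. All 10 symbols matched GENCODE and 8 had an upstream window.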

Additional observations from a re-analysis of the deposited data

How the results depend on the processing

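The count of 0 Notch genes past the FDR held when p-values were adjusted over the more abundant genes alone (mean of 16.1 or more) and at an FDR under 0.10. The 3 genes with an unadjusted p-value under 0.05 kept their direction relative to the all-gene median. They had the highest ratios of the Notch genes described here, so this check could hardly have come out otherwise. The p-values were not recomputed relative to that median, so whether the count of 3 holds under that scaling was not tested. All 3 passed the abundance filter, but so did 9 of the Notch genes in all. At p under 0.01 the count was 0, where 2.7% of all genes were higher. The median log2 ratio of 0.16 was 0.067 with both group sums made equal, 0.032 with these made equal without the most abundant 1% of genes, and -0.027 relative to the all-gene median. The first of these scalings leaves the median of all genes at 0.09 and the second at 0.06. Single log2 ratios turned below 0 as follows. Relative to the all-gene median, they were -0.15 for Notch2, -0.16 for Dll1, -0.067 for Jag2, -0.064 for Heyl and -0.076 for Lfng. With equal sums they were -0.054 for Notch2 and -0.065 for Dll1. Without the most abundant genes they were -0.089 for Notch2, -0.10 for Dll1, -0.0086 for Jag2, -0.0047 for Heyl and -0.017 for Lfng. Notch1, Notch3, Jag1, Hes1 and Hes6 stayed above 0 under all 5 pseudocounts and scalings tried. A pseudocount added to both means cannot move a log2 ratio across 0. Among the scalings, the all-gene median had the largest factor, 1.14, next to 1.06 and 1.09. Staying above 0 throughout thus only restates that these are the 5 genes above that median. No paired analysis was possible because the table holds no value per library, and no library could be left out for the same reason.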
